A study of Mus musculus with 10 samples.

Results

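TREM2 is a surface receptor of microglia that binds lipids and lipoproteins, and it signals through TYROBP (DAP12), an adaptor whose short tail carries an immunoreceptor tyrosine-based activation motif (ITAM). The 8 genes described here encode this receptor, its adaptor, and the enzymes and modulators around them: Trem2, Tyrobp, Syk, Plcg2, Inpp5d, Cd33, Hcst and Ms4a6d. They were taken by name from a table of 55487 genes. All 8 were among the 18957 genes with enough reads to be tested.

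The RNA came from microglia of the mouse retina. The 8wk STZ group (n = 4) and the 4wk STZ group (n = 3) were mice 8 or 4 weeks after streptozotocin (STZ), a drug that makes mice diabetic by killing their pancreatic beta cells, and the Control group (n = 3) were littermates. All mice, controls included, were Cx3cr1GFP/+, with green fluorescent protein (GFP) in place of a copy of Cx3cr1, the fractalkine receptor gene. GFP marks microglia and also other myeloid cells, and viable GFP-positive cells were sorted from the pooled retinas of each animal. A single set of controls served both times and animal ages were not given, so time after STZ and age cannot be told apart.

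When TREM2 or another partner receptor is engaged, Src-family kinases phosphorylate the 2 tyrosines of the TYROBP motif, and the kinase SYK docks there. SYK then activates phospholipase C gamma 2, encoded by Plcg2, and phosphoinositide 3-kinase (PI3K). HCST (DAP10) is a sister adaptor that recruits PI3K directly, and SHIP1, encoded by Inpp5d, removes a phosphate from the lipid that PI3K makes. TREM2 is known in brain lesions and retinal degeneration for a lipid-handling microglial state of which Apoe is a marker.

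Tyrobp and Hcst lie tail to tail on chromosome 7, and the parts of their coding sequence that carry the docking tyrosines are shown because the members' roles divide there. Both are written 5′ to 3′ from the GENCODE vM21 transcripts of GRCm38, with the tyrosine codons in capitals.
Tyrobp: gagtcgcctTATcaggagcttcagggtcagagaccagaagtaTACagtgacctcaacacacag
Hcst: ggtagagtcTACatcaacatgcctggcaga
The Tyrobp stretch covers codons 89 to 109 of the 114 codons of Tyrobp-201, and its ITAM fills codons 92 to 106 with 2 tyrosine codons, the docking sites for SYK. The Hcst stretch covers codons 69 to 78 of the 79 codons of Hcst-201, and its YxxM motif, which binds PI3K, fills codons 72 to 75 with 1 tyrosine codon. Tyrobp (chr7:30413760-30417585, plus strand) ends 126 bases from the end of Hcst (chr7:30417712-30419854, minus strand). They share no annotated exonic sequence.

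The sorted cells had the markers of their label. The 9 microglial markers summed to 27988 to 30680 CPM (read counts scaled to library size) in 8wk STZ, 31625 to 35457 CPM in 4wk STZ, against 36962 to 40794 CPM in Control, and 4 of them had fallen at 8 weeks. Markers of rod photoreceptors summed to 2542 to 3537 CPM in 8wk STZ, 4076 to 5932 CPM in 4wk STZ, against 8504 to 9515 CPM in Control, and all 12 had fallen at 8 weeks. In bulk RNA, fewer cells of a type and less RNA per cell cannot be told apart. Monocyte markers summed to 27.5 to 60.5 CPM in 8wk STZ, 13.3 to 27.7 CPM in 4wk STZ, against 28.1 to 44.7 CPM in Control, neutrophil markers to at most 0.368 CPM and T and NK cell markers to at most 19.5 CPM in any library. Of the B cell markers, Ighm made up 719 to 968 CPM, while Cd79a reached at most 1.41 CPM. Control 3 and 4wk STZ 3 stood away from the other libraries on principal components 1 and 2.

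The 8 genes together took 0.442 to 0.505% of all reads in the 8wk STZ libraries, 0.357 to 0.410% in 4wk STZ and 0.363 to 0.402% in Control. In these shares of library totals, without TMM factors, all 8wk STZ libraries were above all others. That separation did not hold on the TMM scale used for CPM. With TMM factors of 1.08 for 8wk STZ 2 and 0.947 for Control 3, the share of 8wk STZ 2 fell below that of Control 3. Trem2 and Tyrobp had the most reads of the 8 in every library. Levels differed widely between the members. Per kilobase of annotated exonic sequence, Tyrobp averaged 1924 CPM over the 10 libraries and ranked 28 of 18925 genes with an annotated length. Trem2 averaged 317 CPM per kilobase and ranked 143, but its exonic length includes an intron-retaining transcript, and over its longest coding transcript it reached 1441 CPM per kilobase, against 2150 for Tyrobp. The other members were lower on the same exonic scale, with Inpp5d at 79.1, Ms4a6d at 69.5, Plcg2 at 43.5, Cd33 and Hcst both at 35.8 and Syk at 11.0 CPM per kilobase. Syk was lowest and Tyrobp highest on both length scales, while the order of Plcg2, Cd33 and Hcst changed between them.

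The receptor itself showed no difference that passed the test. Trem2 (chr17:48346401-48354147, plus strand) had 1772, 1528, 1918 and 1641 CPM in the 8wk STZ libraries, 1572, 1241 and 1276 CPM in 4wk STZ, against 1601, 1397 and 1737 CPM in Control. The 3 groups overlapped, and the lowest pair of values belonged to 4wk STZ. The log2 fold change was 0.12 for 8wk STZ against Control (95% interval -0.13 to 0.37, adjusted p = 0.726) and -0.21 for 4wk STZ against Control (95% interval -0.48 to 0.06, adjusted p = 0.634). Between the times it was 0.33 for 8wk STZ against 4wk STZ (SE 0.115, 95% interval 0.08 to 0.58), with an unadjusted p of 0.0151 and an adjusted p of 0.230. Unless another test is named, adjusted p-values are from edgeR's quasi-likelihood test with Benjamini-Hochberg adjustment over all 18957 genes, and a gene counts as called when that p is under 0.05.

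The adaptor of TREM2 was higher at 8 weeks in every library but did not pass the adjusted threshold. Tyrobp had 1724, 1246, 1668 and 1371 CPM in the 8wk STZ libraries, 1220.1, 1181 and 1109 CPM in 4wk STZ, against 1129, 1061 and 1124 CPM in Control. All 8wk STZ libraries lay above every library of the other groups, 8wk STZ 2 only narrowly. The mean was 1502 ± 230.4 CPM in 8wk STZ, against 1105 ± 37.8 CPM in Control (SD, n = 4 and 3), a 1.36-fold difference with a 95% interval of 1.15 to 1.61. The log2 fold change was 0.44 (SE 0.111, unadjusted p = 0.00222, adjusted p = 0.0690). Against 4wk STZ, at 1170.0 ± 56.2 CPM (n = 3), the 8wk STZ mean was 1.28-fold higher (log2 fold change 0.36, unadjusted p = 0.00797, adjusted p = 0.173). For 4wk STZ against Control the log2 fold change was 0.08 (95% interval -0.18 to 0.34, adjusted p = 0.900).

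Whether Tyrobp passed at 8 weeks depended on the test and on single libraries. Without 8wk STZ 2 its log2 fold change was 0.52 with an adjusted p of 0.0321, and over all 15 alternative settings the adjusted p ran from 0.00585 to 0.173, with 5 below 0.05. The authors' deposited table gave a log2 fold change of 0.44 with a false discovery rate (FDR) of 0.0119 for Tyrobp at 8 weeks.

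Syk (chr13:52583173-52648792, plus strand), the tyrosine kinase that reads the phosphorylated ITAM, followed the same order of groups at a level well below Tyrobp. It had 118, 119, 116 and 124 CPM in the 8wk STZ libraries, 97.9, 102 and 90.5 CPM in 4wk STZ, against 104, 80.3 and 81.0 CPM in Control. The 4 values at 8 weeks were close together and above all others, and 4wk STZ and Control overlapped. The mean was 119 ± 3.69 CPM in 8wk STZ, against 88.3 ± 13.3 CPM in Control (SD, n = 4 and 3), a 1.35-fold difference with a 95% interval of 1.14 to 1.59. The log2 fold change was 0.43 (SE 0.108, unadjusted p = 0.00209, adjusted p = 0.0674). Against 4wk STZ it was 0.30 (unadjusted p = 0.0175, adjusted p = 0.244), and for 4wk STZ against Control it was 0.13 (95% interval -0.12 to 0.38, adjusted p = 0.797). Without Control 1, the highest control, the log2 fold change at 8 weeks was 0.56 with an adjusted p of 0.0299, and over all 15 alternative settings the adjusted p ran from 0.00874 to 0.204, with 4 below 0.05. The authors' deposited table gave a log2 fold change of 0.43 and an FDR of 0.0284 for Syk.

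Both genes are also expressed by other myeloid cells. Markers of border macrophages summed to 15.5 to 541 CPM in 8wk STZ, 120 to 372 CPM in 4wk STZ, against 74.7 to 366 CPM in Control. The part of the border macrophage, microglial and rod markers in the levels of Tyrobp and Syk was not tested. Without Control 3 and 4wk STZ 3, the log2 fold change at 8 weeks was 0.46 for Tyrobp (adjusted p = 0.162) and 0.38 for Syk (adjusted p = 0.185).

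**Figure D1:**
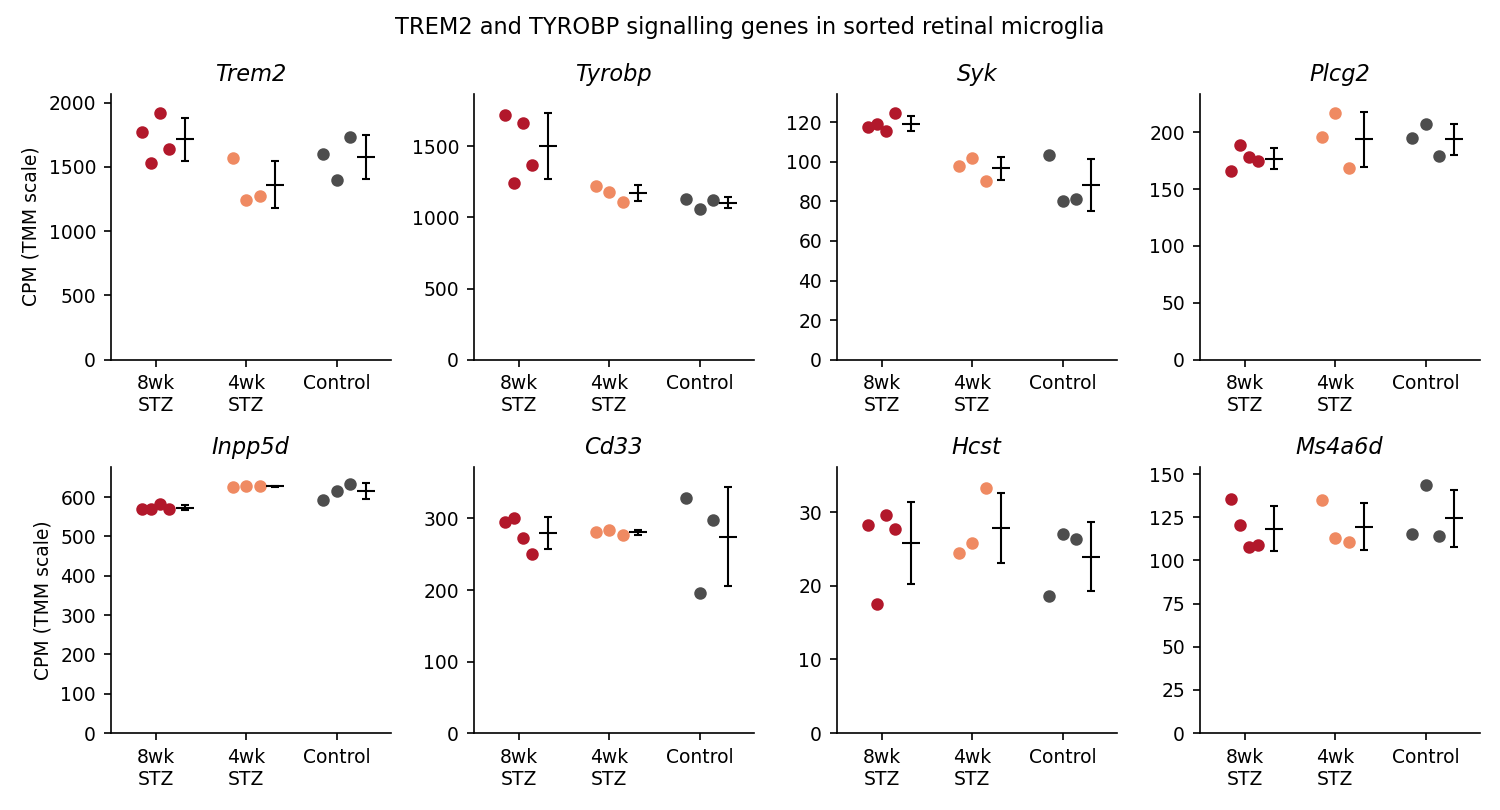
CPM on the TMM scale (vertical axes, from 0) of the 8 genes in each library of 8wk STZ (n = 4), 4wk STZ (n = 3) and Control (n = 3), with the mean and SD of each group beside its points. Tyrobp and Syk are higher in all 4 8wk STZ libraries than in all others, while Trem2, Plcg2, Cd33, Hcst and Ms4a6d overlap between groups.

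The effectors and modulators downstream did not share that order. Plcg2 (chr8:117498291-117635142, plus strand), the phospholipase that releases calcium and diacylglycerol signals, had 166, 189, 178 and 175 CPM in 8wk STZ, 196, 217 and 169 CPM in 4wk STZ, against 195, 207 and 179 CPM in Control. The groups overlapped, and the log2 fold change was -0.13 for 8wk STZ against Control (95% interval -0.35 to 0.09, adjusted p = 0.618) and 0.00 for 4wk STZ against Control (95% interval -0.24 to 0.24, adjusted p = 0.999). The interval at 8 weeks lies below the 1.35-fold difference measured for Syk.

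Inpp5d (chr1:87620312-87720507, plus strand) was the least variable member. It had 570.3, 569, 583 and 569 CPM in 8wk STZ, 626, 627 and 628 CPM in 4wk STZ, against 593, 616 and 634 CPM in Control. Every 8wk STZ library lay below every other library, by a small margin. The log2 fold change was -0.10 for 8wk STZ against Control (95% interval -0.24 to 0.04, adjusted p = 0.518), -0.13 for 8wk STZ against 4wk STZ (95% interval -0.27 to 0.01, adjusted p = 0.405) and 0.03 for 4wk STZ against Control (adjusted p = 0.946). The difference from Control was 0.00 when counts were scaled by library totals alone.

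That scaling moved the median log2 fold change of all genes to 0.10, from -0.01 with the TMM factors used throughout. Relative to that median, Tyrobp stood at 0.44 to 0.45, Syk at 0.44 and Inpp5d at -0.09 to -0.10 under TMM, library totals and upper-quartile scaling. A change of scaling moves all genes nearly alike, so these relative values could hardly differ. Their likeness is therefore no test of how the results depend on scaling.

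The remaining 3 members overlapped between groups in all 3 comparisons. Cd33 (chr7:43524216-43544428, minus strand), a sialic-acid-binding lectin whose human form carries an inhibitory motif, had 295, 300.5, 272 and 251 CPM in 8wk STZ, 281, 283 and 277 CPM in 4wk STZ, against 329, 196 and 298 CPM in Control. Control 2 was the lowest library, and the log2 fold change at 8 weeks was 0.03 (95% interval -0.30 to 0.36, adjusted p = 0.970). It was 0.03 at 4 weeks as well (95% interval -0.32 to 0.39, adjusted p = 0.977).

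Hcst, the sister adaptor, had 28.2, 17.6, 29.6 and 27.8 CPM in 8wk STZ, 24.5, 25.8 and 33.3 CPM in 4wk STZ, against 18.6, 27.0 and 26.3 CPM in Control. A low value stood in both the 8wk STZ and the Control group, and the intervals were the widest of the 8 genes. The log2 fold change was 0.11 for 8wk STZ against Control (95% interval -0.37 to 0.59, adjusted p = 0.901) and 0.22 for 4wk STZ against Control (95% interval -0.30 to 0.73, adjusted p = 0.853). A difference of the size measured for Tyrobp lies inside the 8-week interval.

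Ms4a6d (chr19:11586604-11604849, minus strand) belongs to a family of tetraspan membrane proteins whose human gene cluster is associated with the level of soluble TREM2. It had 136, 121, 108 and 109 CPM in 8wk STZ, 135, 113 and 111 CPM in 4wk STZ, against 115, 143 and 114 CPM in Control. Control 2 was the highest library, the groups overlapped, and the log2 fold change was -0.07 at 8 weeks (95% interval -0.35 to 0.20, adjusted p = 0.880) and -0.06 at 4 weeks (95% interval -0.35 to 0.24, adjusted p = 0.948).

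Over the 8 members, none was called in any comparison, where edgeR's quasi-likelihood test called 0% of all genes tested at 4 weeks against Control, 2.37% at 8 weeks against Control and 0.918% between the times. At an unadjusted p below 0.05, 0 of 8 members stood beside 9.75% of all genes at 4 weeks. In 8wk STZ against Control these were 2 of 8 members (Tyrobp and Syk) beside 15.7% of all genes, and in 8wk STZ against 4wk STZ 3 of 8 (Trem2, Tyrobp and Syk) beside 13.7%. DESeq2 and edgeR's likelihood ratio test each called 2 members (Tyrobp and Syk) at 8 weeks, where DESeq2 called 1451 genes (8.52% of those it tested) and the likelihood ratio test 1166 (6.15%). At 4 weeks each called 0 members, beside 314 genes (1.77%) with DESeq2 and 244 (1.29%) with the likelihood ratio test. By the FDR in the authors' deposited table, 2 of 8 members were below 0.05 at 8 weeks, beside 7.29% of its 14475 genes, and 0 of 8 at 4 weeks, beside 0.801%. Groups did not overlap for 3 of 8 members in 8wk STZ against Control, beside 16.9% of all genes, with 2 of them higher (8.91% of all genes) and 1 lower (7.99%). Between the times this also held for 3 of 8, beside 15.4%, with 2 higher (8.39%) and 1 lower (6.97%), and at 4 weeks for 0 of 8, beside 12.3%. The median log2 fold change of the 8 genes was 0.07 at 8 weeks and 0.03 at 4 weeks, against -0.01 and 0.00 for all genes tested. Both comparisons share the Control libraries.

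**Figure D2:**
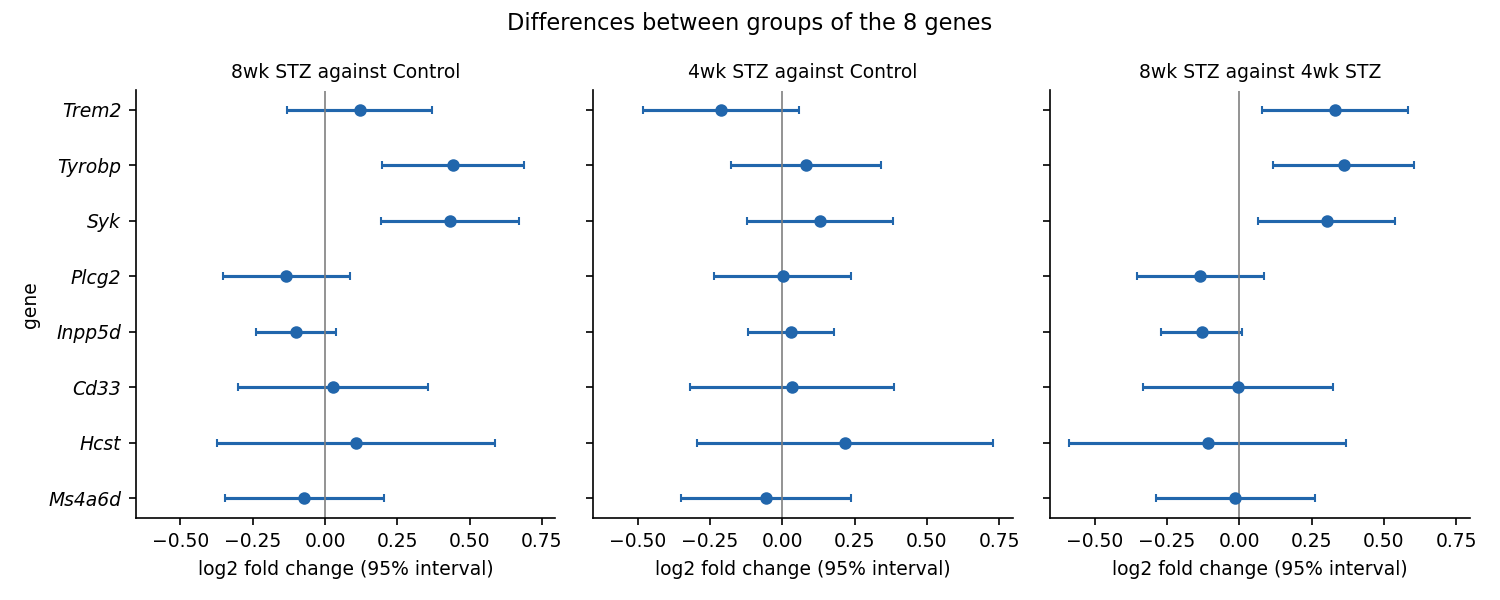
Log2 fold changes (horizontal axes) with 95% intervals of the 8 genes (vertical axis) at 8 weeks and at 4 weeks against Control and between the times (8wk STZ against 4wk STZ), from edgeR's quasi-likelihood fit. Unadjusted intervals lie above 0 for Tyrobp at 0.44 and Syk at 0.43 in the 8wk STZ against Control panel, for those genes and Trem2 between the times, and for none at 4 weeks.

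A ratio of reads of 2 genes within a library does not depend on how libraries are scaled, and 3 such ratios were chosen after the values above had been seen. They are therefore a description, with no test. They compare the adaptor with its receptor, the adaptor with its neighbour, and the kinase with the phosphatase. Each library had 0.973, 0.816, 0.870 and 0.836 Tyrobp reads per Trem2 read in 8wk STZ, 0.776, 0.951 and 0.869 in 4wk STZ and 0.705, 0.760 and 0.647 in Control. Both diabetic groups lay above Control and overlapped each other. The mean log2 ratio differed by 0.31 for 8wk STZ against Control and by 0.30 for 4wk STZ against Control. These differences were made up differently. At 8 weeks the log2 fold change was 0.44 for Tyrobp and 0.12 for Trem2, and at 4 weeks it was 0.08 for Tyrobp and -0.21 for Trem2.

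Syk reads per Inpp5d read were 0.207, 0.209, 0.199 and 0.219 in 8wk STZ, 0.156, 0.162 and 0.144 in 4wk STZ and 0.175, 0.130 and 0.128 in Control. The 8wk STZ libraries were above all others, as they had to be with Syk above and Inpp5d below every other library. The log2 difference was 0.54 for 8wk STZ against Control and 0.43 for 8wk STZ against 4wk STZ. Tyrobp reads per Hcst read averaged 59.4 ± 9.03 in 8wk STZ, 43.0 ± 8.60 in 4wk STZ and 47.7 ± 11.6 in Control (SD, n = 4, 3 and 3). These overlapped between 8wk STZ and Control, with a log2 difference of 0.33.

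**Figure D3:**
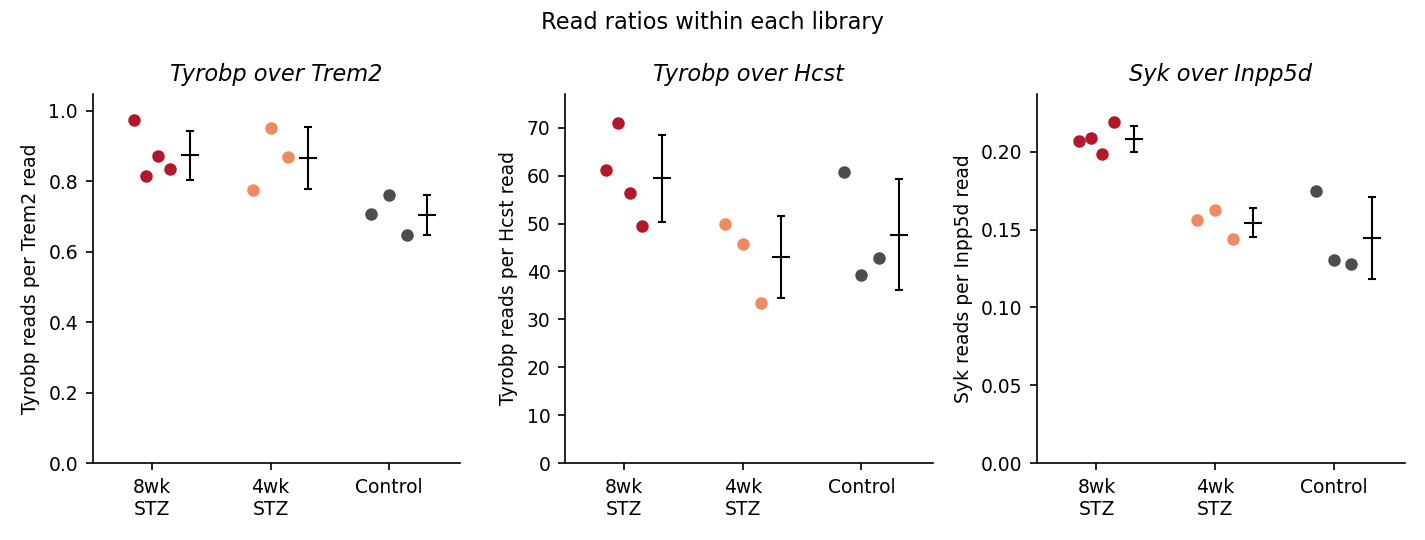
Reads of a gene per read of another within each library (vertical axes, from 0) for 8wk STZ (n = 4), 4wk STZ (n = 3) and Control (n = 3), with the mean and SD of each group beside its points. Tyrobp over Trem2 is higher in both STZ groups than in Control, and Syk over Inpp5d is higher in 8wk STZ than in both other groups.

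The wider pathway was described with 10 lists of 126 genes, of which 120 were tested. At 8 weeks 4 of the 120 had risen and 2 had fallen, where 0.971% of all genes had risen and 1.4% had fallen, and 34 of the 120 had an unadjusted p below 0.05 beside 15.7% of all genes. The median log2 fold change of the 120 genes was 0.16, against -0.01 for all genes. None of the 120 was called at 4 weeks or between the times, with 20 and 31 of them at an unadjusted p below 0.05, beside 9.75% and 13.7% of all genes.

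Of 15 other receptors tested that pair with TYROBP or HCST, 1 rose and 1 fell at 8 weeks. Siglech, a microglial lectin that signals through TYROBP, had 1426, 1383, 1471 and 1359 CPM in 8wk STZ, 1159, 879 and 806 CPM in 4wk STZ, against 869.6, 688 and 897 CPM in Control. It rose 1.72-fold at 8 weeks (log2 fold change 0.78, SE 0.131, adjusted p = 0.0135), and it was called in each of 7 fits that left out a library. Csf1r, the growth factor receptor on which microglia depend and which also uses TYROBP, fell in all 7 as well. It had 7716, 7680.3, 7478 and 8115 CPM in 8wk STZ, 9718, 9123 and 9464 CPM in 4wk STZ, against 10752, 10162 and 11329 CPM in Control. The 3 groups did not overlap, and at 8 weeks the log2 fold change was -0.47 (SE 0.0641, adjusted p = 0.00525). Hmgxb3, on the other strand, shares 15.1% of the exonic sequence of Csf1r, and the library kit does not mark strand. Itgb2, the integrin chain of complement receptor 3, stood at 1181 ± 75.8 CPM in 8wk STZ, against 1236 ± 124 CPM in Control (log2 fold change -0.07, adjusted p = 0.822), and its sign changed with library totals, at 0.04.

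Of the ligands and sheddases of TREM2, 5 were tested and 1 fell. Clu, clusterin, a lipoprotein that TREM2 binds, had 87.4, 24.2, 58.9 and 49.6 CPM in 8wk STZ, 131, 173 and 129.8 CPM in 4wk STZ, against 200.4, 119.7 and 249 CPM in Control. It fell at 8 weeks (log2 fold change -1.79, SE 0.360, adjusted p = 0.0296), a call that held in 3 of 7 fits leaving out a library. It was lost without 8wk STZ 3, 8wk STZ 4, Control 1 or Control 3, with adjusted p of 0.0757, 0.0868, 0.0730 and 0.0982, and also with no filter on low counts (0.121) and with only the 2 groups compared (0.0523). Over all 15 alternative settings 7 kept it below 0.05. Clu is also a gene of Müller glia. Their 8 markers other than Apoe summed to 659 to 960 CPM in 8wk STZ, 1098 to 1258 CPM in 4wk STZ, against 924 to 1379 CPM in Control. Clu itself is among these markers, so its own fall is part of that sum. The part of Müller glia in the fall of Clu was not tested.

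Apoe, the lipoprotein ligand of TREM2 that marks its lipid-handling state, was the most abundant gene of that list. It had 14667, 7754, 5178 and 19382 CPM in 8wk STZ, 4118, 5061 and 2431 CPM in 4wk STZ, against 4487, 1902 and 3783 CPM in Control. All 8wk STZ libraries were above all others, but they also differed widely among themselves, at 11745 ± 6478 CPM (SD, n = 4). The log2 fold change against Control was 1.79 (SE 0.462, adjusted p = 0.0747). Over the 15 alternative settings the adjusted p ran from 0.00402 to 0.266, with 2 below 0.05, those of DESeq2 (0.00902) and of edgeR's likelihood ratio test (0.00402). Markers of border macrophages, which also express Apoe, summed to 415, 155, 15.5 and 541 CPM in the same 8wk STZ libraries, to 120 to 372 CPM in 4wk STZ and to 74.7 to 366 CPM in Control. Within 8wk STZ the order of the libraries was the same for Apoe and for these markers, and their part in the Apoe level was not tested. Adam10, a sheddase of TREM2, stood at 413 ± 57.6 CPM in 8wk STZ, against 476 ± 19.8 CPM in Control (log2 fold change -0.20, adjusted p = 0.560).

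Between SYK and PLCG2, 2 of 17 adaptors and Tec kinases rose at 8 weeks and none fell. Lat2, the adaptor NTAL that links SYK to its effectors, had 339, 307, 329 and 317 CPM in 8wk STZ, 276, 274 and 252 CPM in 4wk STZ, against 210.4, 219.9 and 255 CPM in Control. The 8wk STZ libraries lay above all others (log2 fold change 0.50, SE 0.0881, adjusted p = 0.0164). The call was lost without 8wk STZ 3, Control 1 or Control 2, with adjusted p of 0.0511, 0.0645 and 0.0643, and 11 of the 15 alternative settings kept it below 0.05. Rfc2, on the other strand, shares 36.3% of the exonic sequence of Lat2, so part of its reads cannot be assigned. Tec, a kinase that activates phospholipase C gamma, stood at 54.3 ± 8.09 CPM in 8wk STZ, 48.1 ± 0.638 CPM in 4wk STZ, against 33.3 ± 3.72 CPM in Control. Its log2 fold change was 0.71 at 8 weeks (SE 0.142, adjusted p = 0.0296), called in 1 of 7 fits leaving out a library (without 8wk STZ 3, adjusted p = 0.0199), against adjusted p of 0.0513 to 0.0957 without each of the others. The call also ended with only the 2 groups compared (adjusted p = 0.0550), and 6 of the 15 alternative settings kept it below 0.05. At 4 weeks it was 0.53 (adjusted p = 0.316). Vav1, a guanine nucleotide exchange factor of the same step, stood at 376 ± 40.1 CPM in 8wk STZ, against 387 ± 15.4 CPM in Control (log2 fold change -0.04, and 0.06 with library totals).

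No gene was called among 9 Src-family kinases and their regulators, 14 genes of the PI3K and AKT arm, 18 calcium, protein kinase C, CARD9 and RAS outputs of PLCG2, and 22 inhibitors of SYK and PI3K signalling. An unadjusted p below 0.05 at 8 weeks was found for 0 of 9, 2 of 14, 6 of 18 and 8 of 22, beside 15.7% of all genes. The median log2 fold changes of these lists at 8 weeks were 0.06, -0.06, -0.10 and 0.12. Medians this close to 0 are of the size by which library totals moved the median of all genes, at 0.10. Single genes lay farther out. In the order of the lists they ran from -0.37 to 0.26, -0.30 to 0.39, -0.91 to 0.41 and -0.46 to 2.17. Among the Src-family kinases that phosphorylate the ITAM, Lyn stood at 579 ± 26.5 CPM in 8wk STZ, against 611 ± 72.8 CPM in Control (log2 fold change -0.08, and 0.02 with library totals). Pik3cg, the gamma catalytic subunit of PI3K, was at 273 ± 8.14 CPM in 8wk STZ, against 337 ± 38.4 CPM in Control (log2 fold change -0.30, adjusted p = 0.112, and 0.0276 to 0.333 over the 15 alternative settings, with 1 below 0.05), and Pik3ap1, an adaptor of PI3K, at 297 ± 33.1 and 348 ± 33.2 CPM (adjusted p = 0.378).

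Ptpn6, the phosphatase SHP1 that opposes ITAM signals, had 741, 747, 747 and 686 CPM in 8wk STZ, 674, 611 and 644 CPM in 4wk STZ, against 613, 627 and 589.9 CPM in Control. All 8wk STZ libraries were above all others, with a log2 fold change of 0.26 against Control (SE 0.0709, adjusted p = 0.0886, and 0.0161 to 0.251 over the 15 alternative settings, with 2 below 0.05). Sirpa, an inhibitory receptor that recruits this phosphatase, was at 1003 ± 73.9 CPM in 8wk STZ, against 1126 ± 23.6 CPM in Control (log2 fold change -0.17, adjusted p = 0.413). Among the outputs of PLCG2, Rasgrp3, an activator of RAS-family proteins, was at 342 ± 44.9 CPM in 8wk STZ, against 272 ± 38.1 CPM in Control (log2 fold change 0.33, adjusted p = 0.213). Mapk3, the kinase ERK1, was at 156 ± 27.4 CPM in 8wk STZ, against 181 ± 20.0 CPM in Control (log2 fold change -0.22, adjusted p = 0.511).

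The named relatives of the members by locus and family were far below Trem2 and Tyrobp. Per kilobase of exonic sequence, however, Ms4a4a at 32.6 CPM was above the member Syk at 11.0 CPM. Treml2, a neighbour of Trem2, stood at 27.5 ± 2.18 CPM in 8wk STZ, 21.1 ± 7.24 CPM in 4wk STZ, against 20.4 ± 6.79 CPM in Control, and Treml4 at 8.96 ± 5.97, 3.44 ± 1.40 and 4.03 ± 3.45 CPM in those groups. None of the 4 TREM-like genes tested was called. Of 13 other MS4A genes 8 were tested and none was called, although all 8 had log2 fold changes below 0 in 4wk STZ against Control (median -0.64) and above 0 in 8wk STZ against Control (median 0.44). In 8wk STZ against 4wk STZ the median was 1.16, and 6 of the 8 had an unadjusted p below 0.05 beside 13.7% of all genes. Among these 6, Ms4a1 (log2 fold change 7.09, SE 2.18) did not exceed 0.597 CPM in any library, and Ms4a14 was at 8.74 with an SE of 2.95. Ms4a4c, also among them, is on the list of monocyte markers. The lowest unadjusted p of the 6 in edgeR's quasi-likelihood test were those of Ms4a7 and Ms4a6b, at 0.00335 and 0.00606. Their log2 fold changes were 1.14 (SE 0.305, adjusted p = 0.117) and 0.79 (SE 0.234, adjusted p = 0.151). These comparisons share their groups, so the signs in them are not independent.

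Ms4a6c had 47.5, 52.5, 22.1 and 48.5 CPM in 8wk STZ, 28.5, 31.5 and 23.8 CPM in 4wk STZ, against 36.2, 32.6 and 36.0 CPM in Control, and 53.1% of its exonic sequence is shared with another annotated gene. Ms4a4a had 42.6, 36.9, 6.37 and 59.7 CPM in 8wk STZ, 10.8, 26.1 and 11.2 CPM in 4wk STZ, against 36.1, 13.5 and 28.8 CPM in Control. Both were lowest at 8 weeks in 8wk STZ 3, the library with 15.5 CPM of border macrophage markers, and the part of those cells was not tested. Ms4a6d was also lowest there, at 108 CPM, beside 109 CPM in 8wk STZ 4.

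**Figure D4:**
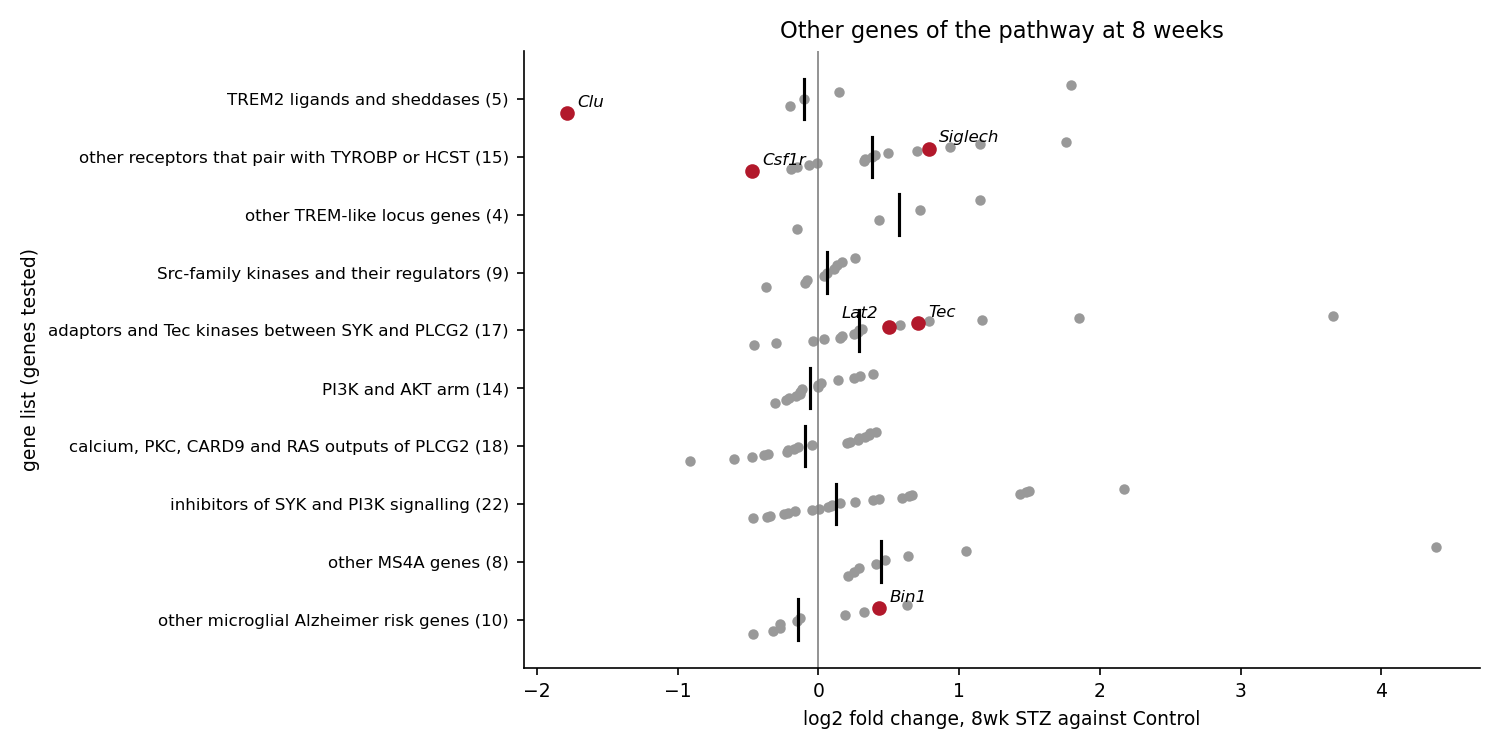
Log2 fold changes for 8wk STZ against Control (horizontal axis) of the genes tested in each of 10 pathway lists (vertical axis, number tested in parentheses), with red points and names for called genes and a black bar for the list median. Siglech at 0.78, Tec at 0.71, Lat2 at 0.50 and Bin1 at 0.43 lie above 0, and Csf1r at -0.47 and Clu at -1.79 below, and the grey point farthest to the right, at 4.39, is Ms4a1, which did not exceed 0.597 CPM in any library.

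Of 10 other genes tied to Alzheimer risk and expressed by microglia, 1 rose at 8 weeks. Bin1, a membrane-bending protein, stood at 434 ± 42.3 CPM in 8wk STZ, 366 ± 29.1 CPM in 4wk STZ, against 323 ± 10.9 CPM in Control. At 8 weeks its log2 fold change was 0.43 (SE 0.0954, adjusted p = 0.0449). In 1 of 7 fits leaving out a library it was called (without 8wk STZ 2, adjusted p = 0.0254), against adjusted p of 0.0874 to 0.138 without each of the others. The call also ended with upper-quartile scaling (adjusted p = 0.0703) and with only the 2 groups compared (0.0588), and 5 of the 15 alternative settings kept it below 0.05. An lncRNA on the other strand shares 6.22% of its exonic sequence. Grn, progranulin of the lysosome, stood at 2196 ± 204 CPM in 8wk STZ, against 3023 ± 302 CPM in Control (log2 fold change -0.46, adjusted p = 0.0505). For Grn 5 of the 15 alternative settings gave an adjusted p below 0.05, in a range of 0.00157 to 0.175. Tspan14, a partner of ADAM10, was at 424 ± 23.5 CPM in 8wk STZ, against 471 ± 36.6 CPM in Control (adjusted p = 0.655).

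The genes most like each member over the 10 libraries were named by Pearson's r of log2 CPM among 9624 genes, as a description, since the libraries share their groups. Cst3, Hexa and Lag3 were most like Trem2 (r = 0.927, 0.923 and 0.917), with r of 0.952, 0.907 and 0.877 within groups. As the highest of 9624 over the same 10 libraries, the r of all genes named here are high in part by that choice. Gtf3a, Adipor2 and Bin1 were most like Tyrobp (r = 0.941, 0.926 and 0.917), with lower r of 0.814, 0.799 and 0.777 within groups. Ttf1 was most like Syk (r = 0.971), Ap3b1 most like Plcg2 (r = 0.929) and Prdx3 most like Inpp5d (r = 0.982). Within groups these r were 0.960, 0.928 and 0.879. Cep152 was most like Cd33 (r = 0.941), Ube2k most like Hcst (r = 0.864) and Lgals8 most like Ms4a6d (r = 0.881), with r of 0.958, 0.855 and 0.910 within groups.

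The first bases upstream of a gene are shown for the member in which the letters GAGGAAGT, a core bound by the myeloid factor PU.1 and other ETS factors, were found on either strand. RefSeq windows of GRCm38.p6, from 250 bases before to 50 after a start, held them in 1052 of 32851 cases (3.20%). Tyrobp and Ms4a6d had no window and were not searched. Of the 6 members with a window, Inpp5d had them, at chr1:87620272-87620311 on the plus strand, with the match in capitals.
Inpp5d: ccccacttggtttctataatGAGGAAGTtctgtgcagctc
Inpp5d is the member whose level varied least. A match of letters says nothing of binding, and the windows of the other members searched hold only part of their regulatory sequence.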

How the data were processed

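RNA of sorted retinal microglia was sequenced in 10 libraries, each from both retinas of a single mouse, after amplification with the SMARTer Ultra Low kit, which does not mark strand, per the labels' protocols. Per the file headers, the first deposited table gives unnormalized counts of reads for each gene, as whole numbers. A deposited table of the authors' comparisons gives log2 fold changes, a likelihood ratio score, p-values and FDR per gene, per the file headers, and of it the log2 fold changes and FDR were printed. GRCm38, STAR, Salmon, Subread with featureCounts, bcl2fastq, limma and edgeR are named in the submitters' processing notes. Which annotation release and strand setting were used, and how multi-mapping reads were handled, is not given in the sources used here. The file's 1 numeric column of no sample (transcripts per gene) was not used.

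Of 55774 entries, 287 repeated an identifier and were dropped. Library totals ran from 46143178 to 62903489 reads in 8wk STZ, 33266838 to 49051036 in 4wk STZ and 45656309 to 54312248 in Control, and the lowest chi-square per degree of freedom between libraries of a group was 48.9, so none was counted as a repeat deposit. Counts were scaled by TMM, filtered with filterByExpr by group and fitted with edgeR 4.0.16 (R 4.3.3), with a mean per group over all 10 libraries and 7 residual degrees of freedom. The robust quasi-likelihood F-test was used, with a biological coefficient of variation of 0.564. All CPM are TMM-scaled, and log2 CPM for likeness had a prior count of 2. The scripts were tested on simulated data.

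The members and gene lists were chosen with earlier results of these data known. Besides the members, the text names for each list the called genes and the 2 most abundant per kilobase (1 of these genes is not reported here), and for each member up to 3 genes most like it where log2 CPM averaged 2 or more, without pseudogenes, predicted genes, Y-linked genes or Xist. Positions are those of GENCODE vM21. Alternatives were DESeq2 1.42.0, edgeR's likelihood ratio test, other scalings, no filter, fits on only the groups compared, a replicate block and leaving out libraries. The exclusion of Control 3 and 4wk STZ 3 together was added after seeing the data. Same-numbered libraries did not deviate together (correlations of -0.0297 to 0.0348), so their numbers were not taken as pairs.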

Additional observations from a re-analysis of the deposited data

Results flagged for a closer look

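Among the 8 genes in the 8wk STZ group, 2 held a library far from the other 3 by Dixon's criterion, where the gap to the nearest library is set against the range of the group at the 95% level. Inpp5d stood at 583.302 CPM in 8wk STZ 3, a gap of 0.887 of the range, although that range was only 569 to 583 CPM and lay below every 4wk STZ and Control library. Hcst stood at 17.5776 CPM in 8wk STZ 2, a gap of 0.844 of the range, with the other 3 libraries at 27.8 to 29.6 CPM. Chance alone flags about 1 in 20 such groups.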

How the results depend on the processing

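For 8wk STZ against Control, 0 members were called by edgeR's quasi-likelihood test, 2 (Tyrobp and Syk) with library totals as the only scaling, with DESeq2 and with edgeR's likelihood ratio test, 1 (Tyrobp) with no filter on low counts, and 0 to 1 when a library was left out. Between the times DESeq2 called 1 member, Tyrobp (adjusted p = 0.0474). At 4 weeks no setting called a member. Over all genes at 4 weeks, where the count was 0, DESeq2 called 314, the likelihood ratio test 244 and the fit with no filter 12, and leaving out a library gave 0 to 1. At 8 weeks, where the count was 449, they were 539 with library totals, 506 with no filter, 1451 with DESeq2, 1166 with the likelihood ratio test, 206 to 255 when a library was left out and 275 without Control 3 and 4wk STZ 3. Between the times, where the count was 174, they were 1004 with DESeq2, 759 with the likelihood ratio test, 277 with no filter, 100 with only the 2 groups compared, 13 to 118 when a library was left out and 6 without Control 3 and 4wk STZ 3. When counts were scaled by library totals alone, 66% of the calls at 8 weeks were higher, against 41% with TMM and 30.9% with the upper quartile, and between the times 70.8%, against 43.1% and 31.2%. The cause was not tested.

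The replicate numbers did not pair the libraries. With the replicate block, 44 genes were called at 8 weeks and 0 between the times, the log2 fold changes of Tyrobp and Syk at 8 weeks were 0.48 (adjusted p = 0.137) and 0.42 (adjusted p = 0.204), and the calls of Csf1r (adjusted p = 0.0505), Siglech (0.0662), Lat2 (0.108), Clu (0.113), Bin1 (0.162) and Tec (0.171) ended. The sign changed for Plcg2 at 4 weeks (-0.002814), Ms4a4a at 8 weeks (-0.1592), and Cd33 (0.04449) and Ms4a6d (0.02056) between the times.

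No log2 fold change of Trem2, Tyrobp or Syk changed sign under any setting. Small ones of other genes did. With library totals, those at 8 weeks were 0.004157 for Inpp5d, 0.03046 for Ms4a6d, 0.03912 for Itgb2, 0.02433 for Lyn and 0.06163 for Vav1, and those between the times 0.08202 for Cd33 and 0.0699 for Ms4a6d. With the upper quartile Cd33 was at -0.0173 at 8 weeks. With no filter Plcg2 was at -0.01141 at 4 weeks, and Cd33 at 0.01957 and Ms4a6d at 0.01008 between the times. Without Control 3 and 4wk STZ 3, Itgb2 was at 0.005896 at 8 weeks and Hcst at 0.03738 between the times.

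Leaving out a library in turn, Cd33 ran from -0.1651 to 0.1759 at 8 weeks, -0.1614 to 0.1798 at 4 weeks and -0.04089 to 0.04449 between the times. Ms4a6d ran from -0.1412 to 0.04225 at 8 weeks, -0.1565 to 0.05528 at 4 weeks and -0.0824 to 0.08483 between the times, and Hcst from -0.04832 to 0.2523 at 8 weeks and -0.1925 to 0.03788 between the times. Plcg2 ran from -0.08834 to 0.09137 at 4 weeks, and at 8 weeks Itgb2 ran from -0.1417 to 0.006291, Lyn from -0.1569 to 0.01212 and Vav1 from -0.08887 to 0.009552.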
